A study of Mus musculus with 23 samples.

Results

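Small nucleolar RNAs (snoRNAs) and small Cajal body RNAs were followed across the RNA libraries of a study of library preparation from small inputs. The members were the gene symbols that begin with Snord, Snora or Scarna and that were listed above 0.01 RPKM (reads per kilobase of transcript and 1000000 mapped reads) in at least 1 of 6 RNA columns. There were 74 such members among 114 symbols of this kind, in a table of 24029 genes. They comprised 38 of 69 box C/D models (Snord, 55.07%), 32 of 36 box H/ACA models (Snora, 88.89%) and 4 of 9 Scarna models. The members were chosen by these measured RPKM values, so their numbers and levels are given as a description.

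The cells were C3H10T1/2, a mouse mesenchymal stem cell line derived from C3H embryos. All cultures were exposed to BMP7 for 3 days. The day 7 cells were then differentiated with DEX, IBMX, insulin, Rosi and T3 and are labelled mature adipocytes, and the day 0 cells are labelled pre-adipocytes. Total RNA was taken up with Trizol and treated with DNase I. Day 7 RNA gave 3 columns by the TELP procedure, named T18, N9_ss and N9, and 1 standard library, and day 0 RNA gave 1 TELP N9 library and 1 standard library. What N9, ss and T18 stand for is not in the labels. The standard libraries were built from RNA bound to oligo(dT) beads, broken to about 200 bp and primed with random hexamers. Every group held 1 library from 1 cell line, so no difference below has a replicate check, and culture, library and group cannot be told apart. The 17 chromatin samples of the study were not analysed here.

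Marker levels fitted the labels. All 6 adipocyte markers looked at exceeded 1 RPKM in each day 7 library, and 3 of 6 did at day 0. Their summed level was 4600 RPKM in T18, 29900 RPKM in TELP N9 and 13160 RPKM in the standard library at day 7, against 27.9 RPKM in TELP N9 and 37.13 RPKM in the standard library at day 0. The 3 stromal markers summed to 4.681, 10.97 and 71.4 RPKM in the same day 7 libraries and to 102 and 108.1 RPKM in the day 0 libraries. Of the osteoblast, chondrocyte, muscle, leukocyte and endothelial markers, no day 7 or day 0 library held more than 1 of a list above 1 RPKM. In these bulk samples fewer cells of a type and less RNA per cell cannot be told apart.

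Box C/D snoRNAs pair with ribosomal RNA and, with the methyltransferase fibrillarin, direct methylation of ribose. Box H/ACA snoRNAs, with the pseudouridine synthase dyskerin, direct the conversion of uridine to pseudouridine. Small Cajal body RNAs guide the same changes on spliceosomal RNAs. In mammals most of them are cut out of introns of a host gene, often a ribosomal protein gene or a noncoding gene such as those named Snhg, and mature snoRNAs carry no poly(A) tail.

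Every member lay within the span of another gene in the RefSeq annotation (GRCm38.p6, used for names, lengths and neighbours, while the files use mm9). Ribosomal protein genes held 27 members, of which 15 were box C/D and 12 box H/ACA. Noncoding genes held 20 members and other protein-coding genes the remaining 27. Hosts were assigned by span without regard to strand, and a ribosomal protein gene took precedence, then a noncoding gene. Snora78, within both Rps2 and Snhg9, was thus counted with the ribosomal protein genes. Genes of the translation machinery often begin at a pyrimidine tract, and the letters CTTT were searched on the gene strand, overlaps allowed, within 15 bases to either side of the annotated start. They were found in 18 of 49 hosts with a promoter entry (36.7%), in 6 of 13 ribosomal protein hosts (46.2%) and in 13.8% of 27025 genes in the same table. The starts of 3 hosts that hold several members show such letters. Each run below has 60 bases, is printed 5′ to 3′ on the gene strand from RefSeq (GRCm38.p6), and has the match in capitals. The windows are chr11:62602847-62602906 on the plus strand for the host of Snord49a, chr7:45128716-45128775 on the minus strand for the host of Snord32a, Snord33, Snord34 and Snord35a, and chr4:132308648-132308707 on the plus strand for the host of Snora16a, Snora44 and Snord99.
2410006H16Rik: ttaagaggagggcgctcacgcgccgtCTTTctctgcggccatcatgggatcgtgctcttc
Rpl13a: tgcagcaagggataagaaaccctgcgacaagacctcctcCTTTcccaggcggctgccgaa
Snhg12: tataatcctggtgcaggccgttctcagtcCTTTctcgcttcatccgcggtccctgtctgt
A match is a description of these letters and no site of binding was measured.

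Most snoRNA values stood for very few reads. In each library the RPKM of many short models came close to a whole multiple of 1 constant divided by an effective length, the number of places in the model that fragments of the library's lengths can take. The constant was fitted on models under 600 nt that are not snoRNAs and was then applied to the members. Of the other models searched, 9 of 23 (39.13%) were whole within 0.02 reads in T18, 22 of 39 (56.41%) in TELP N9 at day 7 and 65 of 98 (66.33%) in TELP N9 at day 0, and 40 of 66 (60.61%) and 48 of 76 (63.16%) in the day 7 and day 0 standard libraries. Of 173 listed snoRNA values in the 5 columns without N9_ss, 151 (87.28%) came within 0.02 of a whole number of reads. Of these 173 values, 68 (39.31%) stood for 1 read, 29 for 2 and 19 for 3, and 129 (74.57%) for 3 reads or fewer. The median was 2 reads, and 11 values reached 10 reads. The fitted depth was 4770000 reads in T18, 5520000 in TELP N9 at day 7 and 22700000 in TELP N9 at day 0, and 14200000 and 14400000 in the standard libraries of day 7 and day 0. Reads divided by this depth and times 1000000 are given as RPM, which has no correction for length.

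**Figure D1:**
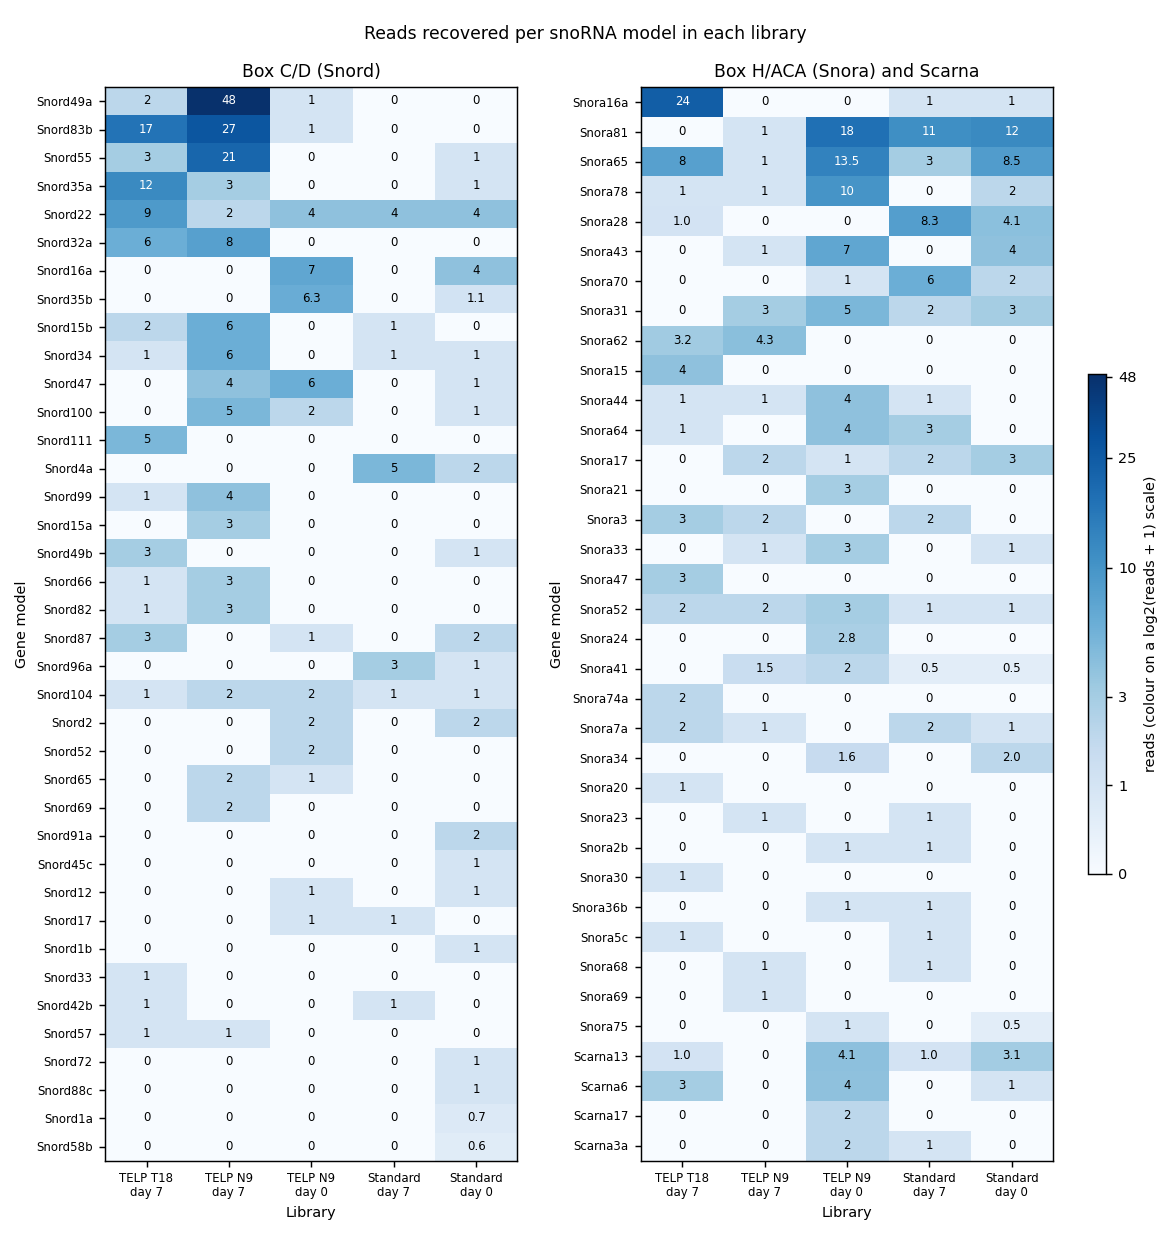
Reads recovered for each of the 74 models (vertical) in 5 libraries (horizontal), with box C/D models on the left and box H/ACA and Scarna models on the right. Numbers and colours give reads, and Snord49a with 48 reads in TELP N9 at day 7 is the largest value.

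The same read was worth very different RPKM values. The median length of the C/D members was 68 nt. At a shorter model of 60 nt, 1 read equalled 2182 RPKM in T18, 2463 RPKM in TELP N9 at day 7 and 157 RPKM in TELP N9 at day 0. It equalled 733 and 722 RPKM in the standard libraries of day 7 and day 0. At 120 nt, near the usual size of a box H/ACA RNA, the same read equalled 51.8, 46.1, 9.32, 17.4 and 17.1 RPKM in that order. The shortest fragment length that the fit allowed was 34 nt in TELP N9 at day 0, against 47 to 49 nt in the other columns. At equal RPM, a 60 nt model was therefore 1.93 log2 units higher in RPKM in TELP N9 at day 7 than at day 0. A 70 nt model was 1.14 units higher and a 120 nt model 0.27 units higher. Between the standard libraries this difference was 0.

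**Figure D2:**
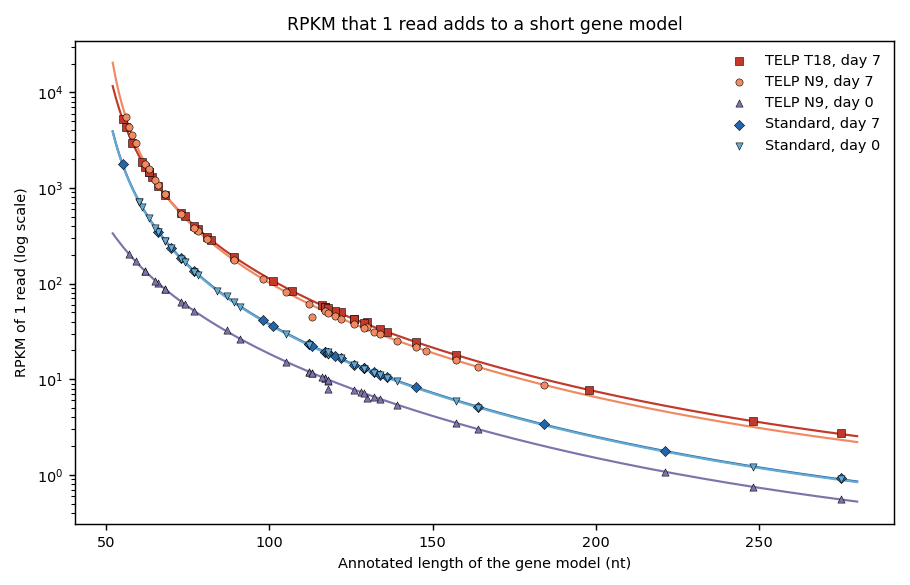
RPKM of 1 read (vertical, log scale) against annotated length (horizontal, nt). Lines are the fitted values of each library and points are members, each RPKM divided by its reads to the nearest whole number; the TELP N9 day 0 line runs lowest and is flatter at short lengths.

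Length also marked which symbols were listed at all. No symbol of 54 nt or less was a member (0 of 10). From 55 to 70 nt 23 of 36 were members, from 71 to 100 nt 14 of 26, and above 100 and up to 300 nt 37 of 41. Of the symbols outside the rule 38 were listed at 0 in all 6 columns. Just under the limit lay Snord7 with at most 0.00217 RPKM and Snora26 with at most 2.17e-05 RPKM. Just above it lay Snord17 (1.78 RPKM), Scarna13 (2.73 RPKM) and Snora23 (8.76 RPKM). A 0 in these columns says only that no level was listed.

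Few members were seen throughout. Over the 5 columns without N9_ss, 21 members were listed in 1 library, 24 in 2, 16 in 3, 9 in 4 and 4 in all 5. The 4 were Snord22, Snord104, Snora52 and Snora65. Snord22, the U22 RNA known from frog oocytes to be needed for 18S ribosomal RNA maturation, lies in Snhg1 on chromosome 19 and held 9 reads in T18, 2 in TELP N9 at day 7, 4 in TELP N9 at day 0, and 4 in each standard library. Its level was 382, 75.4, 31.1, 57.1 and 56.2 RPKM in that order. The 2 standard libraries were thus level and T18 was highest, also in RPM (5.2-fold over TELP N9 at day 7, 95% interval 1.08 to 49.4). Snord104 held 1, 2, 2, 1 and 1 reads and Snora52, in the ribosomal protein gene Rplp2, 2, 2, 3, 1 and 1 reads in the same order.

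As a class, the box C/D RNAs were much more abundant in the day 7 TELP libraries than elsewhere. They held 70 reads in T18 and 150 in TELP N9 at day 7, against 37.28 in TELP N9 at day 0 and 17 and 31.34 in the standard libraries of day 7 and day 0. Fractions arise from members whose values were not whole. The class stood at 14.66 RPM (95% exact Poisson interval 11.43 to 18.52) in T18 and 27.19 (23.01 to 31.91) in TELP N9 at day 7. It was 1.644 (1.149 to 2.249) in TELP N9 at day 0, and 1.196 (0.697 to 1.915) and 2.173 (1.46 to 3.051) in the standard libraries of day 7 and day 0. Such intervals cover counting error only, take a listed 0 as 0 reads, and treat reads without molecular identifiers as independent molecules, and intervals of ratios are not adjusted for the number of members. The intervals of the day 7 TELP libraries stood clear of those of the other 3 libraries, which overlapped each other.

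At day 7 the C/D class was 16.5-fold higher than at day 0 in TELP N9 in RPM (95% interval 11.6 to 24.6) and 72-fold in summed RPKM. In TELP N9 it was 22.7-fold higher than in the standard library of day 7 in RPM (13.7 to 40.1) and 44.2-fold in summed RPKM. In the standard libraries day 7 was 0.55-fold day 0 (0.289 to 1.04), an interval that holds 1. The ratio of the days thus lay on opposite sides of 1 in the 2 library types, and no replicates allow a test of that contrast. At day 0 TELP N9 was 0.757-fold the standard library (0.458 to 1.27).

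The H/ACA class had overlapping intervals in the libraries other than T18. It held 58.23 reads in T18 and 24.76 in TELP N9 at day 7, against 81.84 in TELP N9 at day 0 and 47.77 and 45.61 in the standard libraries of day 7 and day 0. In RPM the values were 12.2 (9.22 to 15.7) in T18 and 4.49 (2.93 to 6.69) in TELP N9 at day 7, and 3.61 (2.88 to 4.49), 3.36 (2.49 to 4.48) and 3.16 (2.33 to 4.25) in TELP N9 day 0, standard day 7 and standard day 0. Day 7 over day 0 was 1.24 (0.767 to 1.98) in TELP N9 and 1.06 (0.692 to 1.62) in the standard libraries. T18 stood above TELP N9 at day 7 by 2.72-fold (1.65 to 4.47). Without Snora16a that ratio was 1.6 (0.91 to 2.75), an interval that holds 1. Snora16a was left out after it was seen to lead in T18, so its removal had to lower the ratio. Without Snora81 and Snora65 the class stood at 4.13 RPM in TELP N9 at day 7, against 2.22 RPM in TELP N9 at day 0, 2.38 RPM in the standard day 7 library and 1.74 RPM in the standard day 0 library. Both members were left out after their reads were seen. Each held 1 read in TELP N9 at day 7, so their removal had to lower that library least of these, and the values are a description only.

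**Figure D3:**
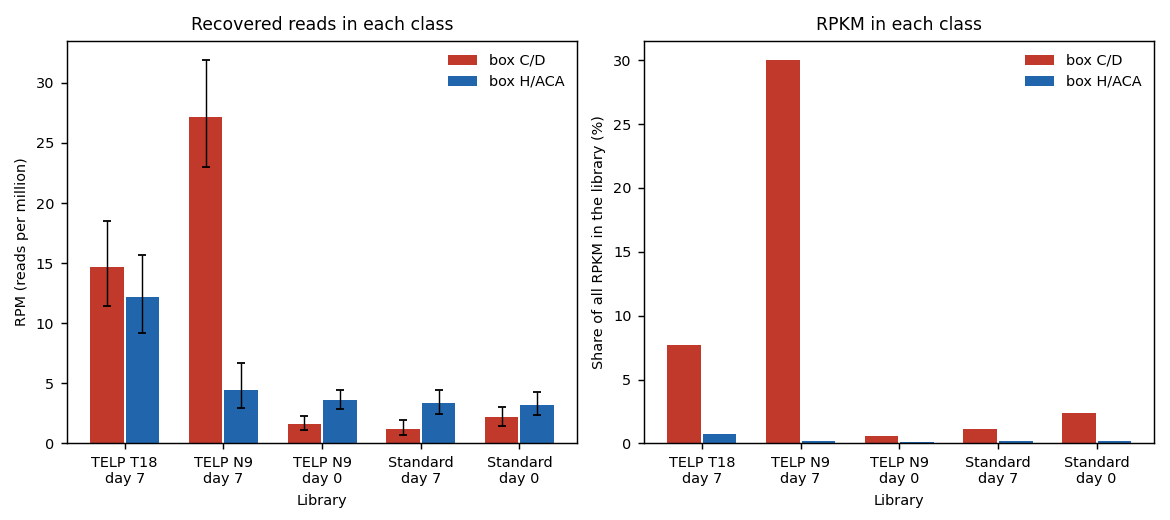
Left, RPM in the box C/D (red) and box H/ACA (blue) members of each library with exact 95% Poisson intervals; right, the share of all RPKM in the library that each class holds (%). Box C/D holds 27.19 RPM in TELP N9 at day 7, and 30.02% of its RPKM.

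The 2 scales ordered the classes differently. By reads, C/D over H/ACA was 1.2 in T18, 6.06 in TELP N9 at day 7, 0.455 in TELP N9 at day 0, 0.356 in the standard day 7 library and 0.687 in the standard day 0 library. By RPKM the same ratio was 10.6, 165, 4.09, 5.74 and 14 in that order. C/D members thus held less than the H/ACA members in 3 libraries by reads and more in all 5 by RPKM. C/D members took 7.73% of all RPKM in T18, 30.02% in TELP N9 at day 7, 0.595% in TELP N9 at day 0, 1.16% in the standard day 7 library and 2.36% in the standard day 0 library. With microRNA models and other small noncoding RNAs, the other snoRNA classes among them, left out of the total, the shares of T18 and TELP N9 at day 7 were 28.34% and 31.82%.

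Snord49a, Snord83b and Snord55 led the C/D class in TELP N9 at day 7. Snord49a, a 62 nt model in the noncoding gene 2410006H16Rik on chromosome 11, held 2 reads in T18 and 48 in TELP N9 at day 7, against 1 in TELP N9 at day 0, and was listed at 0 in both standard libraries. Its level was 3316 RPKM in T18 and 86430 RPKM in TELP N9 at day 7, against 134 RPKM in TELP N9 at day 0. Day 7 over day 0 in TELP N9 was 197-fold in RPM (95% interval 33.8 to 7953) and 643-fold in RPKM.

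Its neighbours in the same host did not share this level. Snord49b held 3 reads in T18 and 1 in the standard day 0 library and was listed at 0 in the others. Snord65 held 2 reads in TELP N9 at day 7 and 1 in TELP N9 at day 0. The host transcript itself was at 31 RPKM in T18, 52.3 RPKM in TELP N9 at day 7, 172 RPKM in TELP N9 at day 0, 73.2 RPKM in the standard day 7 library and 184 RPKM in the standard day 0 library, and so lower at day 7 in both library types.

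Snord83b, a 77 nt model in Rpl3 on chromosome 15, held 17 reads in T18 and 27 in TELP N9 at day 7, against 1 in TELP N9 at day 0, and was listed at 0 in both standard libraries. Its level was 6853, 10424 and 51.7 RPKM in those 3 libraries. Day 7 over day 0 in TELP N9 was 111-fold in RPM (18.3 to 4544), and T18 over TELP N9 at day 7 was 0.728-fold (0.372 to 1.38). Snord83b thus had many reads in both T18 and TELP N9 at day 7, which may come from the same RNA. Its host Rpl3 was at 40.8 RPKM in T18, 142 RPKM in TELP N9 at day 7 and 400 RPKM in TELP N9 at day 0.

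Snord55, a 78 nt model, held 3 reads in T18, 21 in TELP N9 at day 7 and 1 in the standard day 0 library, and was listed at 0 in the other 2. T18 over TELP N9 was 0.165-fold in RPM for Snord55 (0.0315 to 0.553) and 0.0481-fold for Snord49a (0.00567 to 0.184), so both were lower in T18 beyond counting error. Most genes were lower in T18 as well. In RPKM, 83.4% of all genes were lower by at least 1 log2 unit, with a median over all genes of -1.77. On that scale Snord55 differed by -2.74 and Snord49a by -4.70 log2 units. Without Snord49a, Snord83b and Snord55 the C/D class was still 6.29-fold higher at day 7 than at day 0 in TELP N9 (4.07 to 10) and 8.18-fold higher in TELP N9 than in the standard library at day 7 (4.67 to 15.1). Without them T18 over TELP N9 was 1.03 (0.681 to 1.54), against 0.539 (0.4 to 0.721) with them. The 3 were left out after their values were seen, because they led in TELP N9 at day 7. Their removal had to lower the sum of that library most, so the interval without them is a description only.

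Members from the introns of Rpl13a also gathered in the day 7 TELP libraries. These C/D RNAs, known in rodent cells as mediators of lipotoxic stress, together held 20 reads in T18 and 17 in TELP N9 at day 7, against 0 in TELP N9 at day 0, 1 in the standard day 7 library and 2 in the standard day 0 library. Snord32a held 6 and 8 reads in T18 and TELP N9 at day 7 and was listed at 0 in the other 3. Snord35a held 12 and 3 reads there and 1 in the standard day 0 library. Snord34 held 1, 6, 0, 1 and 1 reads in the order T18, TELP N9 day 7, TELP N9 day 0, standard day 7, standard day 0, and Snord33 held 1 read, in T18. Snord35a thus leaned to T18 (4.62-fold over TELP N9 in RPM, 1.25 to 25.5) and Snord34 to TELP N9 (T18 over TELP N9 0.193-fold, 0.00419 to 1.59, an interval that holds 1). The Rpl13a transcript was at 38.4, 181, 391, 105 and 171 RPKM in the same order of libraries.

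Other C/D members of day 7 TELP were thinner. Snord99, in Snhg12, held 1 read in T18 and 4 in TELP N9 at day 7, which the length correction turned into 4302 and 22030 RPKM. Snord15b, in Rps3, held 2 reads in T18, 6 in TELP N9 at day 7 and 1 in the standard day 7 library. Snord66 and Snord82 each held 1 read in T18 and 3 in TELP N9 at day 7, and Snord69 held 2 in TELP N9 alone. Snord111 held 5 reads in T18, the only library that listed it. Snord47, in the region of Gas5, was listed at 0 in T18 and the standard day 7 library and held 4 reads in TELP N9 at day 7, 6 in the deeper TELP N9 library of day 0 and 1 in the standard day 0 library. In RPM day 7 over day 0 in TELP N9 was 2.74-fold for Snord47 (0.569 to 11.6), an interval that holds 1.

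Many C/D members were not listed in any day 7 TELP library, and T18 and TELP N9 at day 7 each listed 18 of the 38. Snord16a, in Rpl4, held 7 reads in TELP N9 at day 0 and 4 in the standard day 0 library and was listed at 0 in every day 7 library. Snord35b held 6.28 and 1.06 reads in the same day 0 libraries, and Snord2 held 2 in each. Snord4a held 5 reads in the standard day 7 library and 2 in the standard day 0 library, and Snord96a 3 and 1, and neither was listed in a TELP library. The others absent from day 7 TELP, with at most 2 reads in any library, were Snord1a, Snord1b, Snord12, Snord17, Snord45c, Snord52, Snord58b, Snord72, Snord88c and Snord91a.

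Among the H/ACA members, Snora81, Snora65 and Snora16a carried most reads. Snora81, a 164 nt model in Eif4a2 on chromosome 16, held 1 read in TELP N9 at day 7 and 18 in TELP N9 at day 0, and 11 and 12 in the standard libraries of day 7 and day 0, and was listed at 0 in T18. Day 7 over day 0 was 0.228-fold in TELP N9 (0.00548 to 1.45) and 0.93-fold in the standard libraries (0.372 to 2.3), and both intervals hold 1. At day 0 TELP N9 over standard was 0.954-fold (0.435 to 2.17), so that the 2 library types gave Snora81 near-equal rates there.

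Snora65, in Rpl12 on chromosome 2, held 8 reads in T18, 1 in TELP N9 at day 7, 13.5 in TELP N9 at day 0, 3 in the standard day 7 library and 8.5 in the standard day 0 library. T18 over TELP N9 was 9.24-fold in RPM (1.24 to 410). The days did not differ beyond counting error in either library type (0.294-fold, 0.00694 to 1.93, in TELP N9 and 0.338-fold, 0.0589 to 1.36, in the standard libraries).

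Snora16a was the member with most reads in T18. This 136 nt model in Snhg12 on chromosome 4 held 24 reads there and 1 in each standard library, and was listed at 0 in both TELP N9 libraries. In the same host Snora44 held 1 read in T18, 1 in TELP N9 at day 7, 4 in TELP N9 at day 0 and 1 in the standard day 7 library. Snhg12 itself was at 3.65 RPKM in T18, 14.5 RPKM in TELP N9 at day 7, 26.6 RPKM in TELP N9 at day 0, 20.7 RPKM in the standard day 7 library and 36.9 RPKM in the standard day 0 library. Snora16a thus stood apart from its host and its neighbour in T18.

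Snora78, in the region of Rps2 and Snhg9, held 1 read in T18, 1 in TELP N9 at day 7, 10 in TELP N9 at day 0 and 2 in the standard day 0 library. Snora43, in Snhg7, held 1 read in TELP N9 at day 7, 7 in TELP N9 at day 0 and 4 in the standard day 0 library. Snora70, in Rpl10, held 6 and 2 reads in the standard libraries of day 7 and day 0, and Snora28, in Eif5, 8.27 and 4.14. Day 7 over day 0 was 3.05-fold for Snora70 (0.544 to 30.9) and 2.03-fold for Snora28 (0.544 to 9.21), both intervals holding 1.

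The 4 Scarna members stayed low in all libraries. They summed to 4.02 reads in T18, 0 in TELP N9 at day 7, 12.08 in TELP N9 at day 0, 2.02 in the standard day 7 library and 4.06 in the standard day 0 library. Scarna13, in Snhg10, held 1.02, 0, 4.08, 1.02 and 3.06 reads in that order, and Scarna6, in Atg16l1, 3, 0, 4, 0 and 1. Scarna17 held 2 reads in TELP N9 at day 0, and Scarna3a 2 in TELP N9 at day 0 and 1 in the standard day 7 library.

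Some models share bases with a microRNA hairpin, so a read there can belong to either. The hairpins below, from RefSeq (GRCm38.p6), are printed 5′ to 3′ with the bases inside the span of the snoRNA model in capitals. Mir1291 (chr15:98519762-98519878, minus strand) shares 73 of its 117 bases with Snora34, Mir664 (chr1:185242975-185243043, plus strand) 64 of 69 with Snora36b, and Mir1843b (chr1:159340358-159340423, plus strand) all 66 with Scarna3a.
Mir1291: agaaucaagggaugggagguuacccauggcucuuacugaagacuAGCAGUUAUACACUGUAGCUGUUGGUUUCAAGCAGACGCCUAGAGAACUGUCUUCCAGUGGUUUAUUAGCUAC
Mir664: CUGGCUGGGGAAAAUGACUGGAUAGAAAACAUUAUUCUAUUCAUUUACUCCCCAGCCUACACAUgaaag
Mir1843b: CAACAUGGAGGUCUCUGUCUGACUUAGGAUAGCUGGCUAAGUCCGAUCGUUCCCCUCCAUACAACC
Mir1291 was listed beside Snora34 at day 0. In TELP N9 it took 13.407 reads and Snora34 1.593, which sum to 15 reads. In the standard library Mir1291 took 1.024 reads and Snora34 1.976, which sum to 3 reads. Neither value alone was whole, and both models were listed at 0 in every day 7 library. Mir664 and Mir1843b were listed at 0 in all columns, and Snora36b and Scarna3a held 1 and 2 reads in TELP N9 at day 0 and 1 each in the standard day 7 library. Of hairpins not printed, Mir3069 shares all 65 bases with Scarna13 and Mir5121 28 of 74 with Snord33. Both hairpins were listed at 0 in all columns.

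On the RPKM scale, a member was called higher or lower when log2(RPKM + 1) differed by at least 1, where the mean of both libraries reached 1 RPKM. This rule of size carries no test, and a member listed at 0 in one of the libraries had to be called unless it was low in the other. In TELP N9, day 7 against day 0, 49 of 52 members kept were called, against 43.8% of all genes. Of these 28 were higher, against 13.9% of all genes, and 21 were lower, against 29.9%. By class 18 of 24 C/D members were higher and 6 lower, and 10 of 24 H/ACA members were higher and 11 lower. Among the 17 members listed at both days, 11 were higher (13.2% of all genes listed at both) and 3 were lower (29.1%), while the median over all genes was -0.45. All 7 C/D members listed at both days were higher, with a median of 4.6 log2 units, part of which the change in the value of 1 read supplies as given above.

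In the standard libraries, day 7 against day 0, 38 of 49 members were called (14.8% of all genes). Of these 15 were higher (8.22% of all genes) and 23 lower (6.53%). Of the 24 C/D members kept, 17 were lower and 4 higher. Only 5 of the 24 were listed at both days, however, and of these 2 were higher and none lower. Of 16 members of all classes listed at both days, 4 were higher (7.56%) and 1 lower (6.08%). The 4 were Snord96a, Snora70, Snord4a and Snora28, and the lower one was Snora65. The RPM intervals of the 2 standard libraries overlapped for all members.

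TELP N9 against standard at day 7 gave 42 of 45 members called (24.5% of all genes), 30 of them higher (7.51%) and 12 lower (17.0%). Here 17 of 21 C/D members were higher, and 13 of 23 H/ACA members. Of the 15 listed in both, 11 were higher (7.14%) and 1 was lower (16.4%), Snora81. At day 0 37 of 51 members were called (2.92%). Of these 15 were higher in TELP N9 (2.2%) and 22 lower (0.718%), and of 23 listed in both 3 were higher (1.46%) and 6 lower (0.198%). At equal RPM a 60 nt model has a log2 RPKM difference of -1.55 in this comparison and a 70 nt model one of -0.938. The RPM intervals overlapped for all members.

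T18 against TELP N9 at day 7 gave 41 of 50 members called (84.2% of all genes), 20 of them higher (0.841%) and 21 lower (83.4%). Of 20 members listed in both, 4 were higher (0.501%) and 7 lower (83.4%). The median over all genes was -1.77, and 8130 of 9753 genes were lower in T18. Scaling by the median of ratios brought that median to -0.08 and gave 29 members higher and 15 lower. N9_ss differed from N9 by a fixed factor, 0.956 in each of 34 members, so the 2 columns held the same snoRNA reads and no member was called (0.029% of all genes were, 0.0194% higher and 0.00968% lower).

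Few of these calls had RPM intervals that did not overlap, and an overlap does not show that 2 rates are equal. Day 7 over day 0 in TELP N9, 8 of 49 called members had intervals that did not overlap, all higher. They were Snord15b, Snord32a, Snord34, Snord49a, Snord55, Snord83b, Snord99 and Snora62, and only Snord49a and Snord83b were listed at both days. TELP N9 over standard at day 7, 7 of 42 did so, again all higher, and they were Snord15b, Snord32a, Snord34, Snord49a, Snord55, Snord83b and Snord100. Snord15b and Snord34 were listed in both libraries, each with 6 reads in TELP N9 and 1 in the standard library (15.5-fold, 1.88 to 711). T18 over TELP N9, Snora16a was higher and Snord49a and Snord55 lower. Some members with overlapping intervals had a ratio whose own interval left out 1. They were Snord100 at day 7 over day 0 in TELP N9 (10.3-fold, 1.68 to 108), and Snord35a, Snord22 and Snora65 in T18 over TELP N9, as given above. Of the members called by size, 59.18% in the first comparison and 66.67% in the second had at most 3 reads in either library.

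Across both library types, 4 of 35 members kept in both were higher at day 7 in each (7.33% of all genes) and 9 were lower in each (6.03%). The higher ones were Snora3, Snora23, Snora68 and Snord15b. The lower ones were Snora34, Snora65, Snora75, Snora78, Snord2, Snord12, Snord16a, Snord35b and Snord87. A limma fit over all 11474 genes of the 4 libraries, with library type as a block and 1 residual degree of freedom, called 2 members higher (0.715% of all genes) and 7 lower (0.105%) at a false discovery rate of 0.05. Snora68 and Snora3 were higher by 6.11 and 5.85 log2 units (limma adjusted p = 0.0382 for each), and Snord16a was lower with a log2 difference of -7.69 (limma adjusted p = 0.0213). Each of the 9 was listed at 0 in both libraries of one day, and 7 of them never exceeded 3 reads in any of the 4 libraries. Snora68 was called from 1 read in each day 7 library. Snord87, called lower at day 7, held 3 reads in T18, a day 7 library outside that fit.

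At both days, 6 of 30 members were higher in TELP N9 than in the standard library (0.638% of all genes) and 5 lower (0.2%). The higher ones were Snora41, Snora44, Snora78, Snord49a, Snord65 and Snord83b, and the lower ones Snora16a, Snora28, Snora70, Snord4a and Snord96a. The limma term for library type called 0 members higher (0.0% of all genes) and 0 lower (0.00872%), with 12 members at an unadjusted p under 0.05.

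Members in ribosomal protein genes (27 of 74) and in noncoding genes (20) together were most of the models and held most of the reads of every library. Such a majority of reads is thus by itself no result about the hosts. The 27 in other protein-coding genes held 16.7% of the reads in T18 and 8.87% in TELP N9 at day 7. Elsewhere they held 29.4% in TELP N9 at day 0 and 46.1% and 37.2% in the standard libraries of day 7 and day 0. In the standard libraries they thus held no less than their share of the models (27 of 74). Members in ribosomal protein genes held 13.2 RPM (10.1 to 16.9) in T18 and 16.9 (13.6 to 20.6) in TELP N9 at day 7, against 2.37 (1.79 to 3.11) in TELP N9 at day 0 and 1.83 (1.2 to 2.68) and 1.95 (1.29 to 2.81) in the standard libraries of day 7 and day 0. Members in noncoding hosts held 9.85, 12 and 1.71 RPM in the TELP libraries T18, N9 day 7 and N9 day 0, and 0.705 and 1.58 in the standard libraries of day 7 and day 0. Members in other protein-coding genes varied least, with 4.62, 2.81 and 1.7 RPM in the same TELP libraries and 2.17 and 2.09 in the standard ones. Even so, their intervals in T18 (2.89 to 6.98) and in TELP N9 at day 0 (1.22 to 2.35) did not overlap, while the other pairs did. Single members weigh on these sums: in TELP N9 at day 7 Snord49a gave 48 of the 66 reads in noncoding hosts, and Snord83b gave 27 of the 93.26 reads in ribosomal protein hosts.

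**Figure D4:**
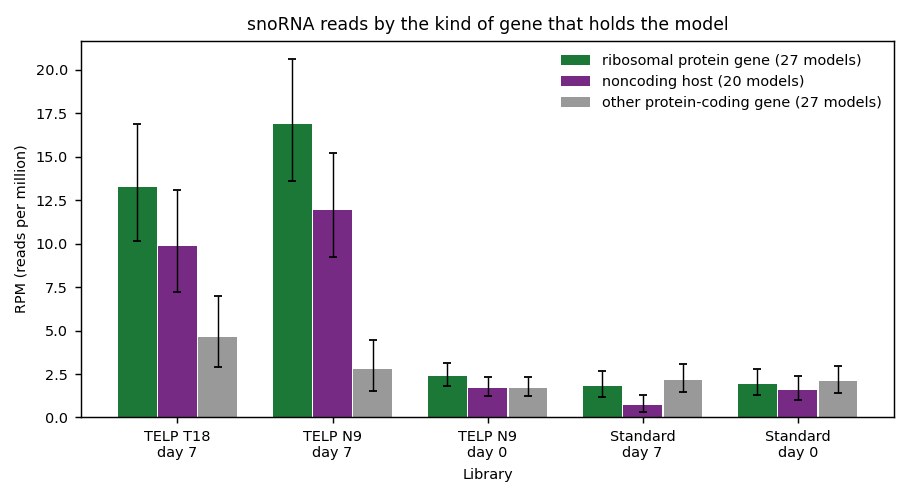
RPM (vertical) in members that lie in ribosomal protein genes, noncoding genes and other protein-coding genes, by library (horizontal), with exact 95% Poisson intervals. Ribosomal protein hosts lead in TELP N9 at day 7 with 16.9 RPM.

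The host transcripts were mostly not called, and those called between the days were mostly lower at day 7. Of 59 hosts in the table, 2 were higher and 26 lower at day 7 than at day 0 in TELP N9 (13.9% and 29.9% of all genes), with a median log2 difference of -0.84 against -0.45 over all genes. In the standard libraries 1 was higher and 6 were lower (8.22% and 6.53% of all genes), with a median of -0.52 against -0.18. Between TELP N9 and standard, 2 hosts were higher and 0 lower at day 7 (median -0.08), and 4 were higher and 0 lower at day 0 (median 0.11). On a list of mainly noncoding snoRNA host genes, 17 of them in the table and those named Snhg among them, 0 were higher and 8 of 14 kept were lower at day 7 in TELP N9 (29.9% of all genes were lower), with a median of -1.05. In the standard libraries 0 were higher and 4 of 13 kept were lower (6.53% of all genes), with a median of -0.66. Some genes of the list hold none of the 74 members. Among these, Meg3 and Rian were lower in both library types (-3.96 and -3.85 log2 units in TELP N9, -1.35 and -1.76 in the standard libraries).

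Genes for proteins that bind or assemble snoRNAs were called between the days in 5 of 20 cases in TELP N9 (43.8% of all genes) and in 1 of 20 in the standard libraries (14.8%). Of the 20, 1 was higher at day 7 than at day 0 in TELP N9 and 4 (Naf1, Ruvbl1, Znhit6 and Coil) were lower, with a median of -0.13 log2 units against -0.45 over all genes. In the standard libraries 0 were higher and 1 was lower. Fbl, the fibrillarin of the C/D particle, was at 12.1 RPKM in TELP N9 at day 7 and 14.8 RPKM at day 0, and at 9.47 and 11.4 RPKM in the standard libraries of day 7 and day 0. Dkc1, the dyskerin of the H/ACA particle, was at 8.1 and 7.24 RPKM in TELP N9 and at 7.96 and 6.92 RPKM in the standard libraries, day 7 before day 0. Naf1, an assembly factor of H/ACA particles, was lower at day 7 in both library types, with 3.32 RPKM at day 7 against 15.9 RPKM at day 0 in TELP N9 and 6.3 RPKM against 16.3 RPKM in the standard libraries. Nhp2, another H/ACA protein, was the gene that was higher in TELP N9, with 30.6 RPKM at day 7 against 14.7 RPKM at day 0. Between TELP N9 and standard, 0 of the 20 were called at either day, and T18 against TELP N9 gave 14 of 18 lower, with a median of -1.79 log2 units against -1.77 over all genes.

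Depth, library type and day moved together with the C/D result. The 2 shallowest libraries, T18 and TELP N9 at day 7, were the 2 with high C/D reads, and they were also the TELP libraries of day 7. No standard library or TELP day 0 library was as shallow, and day, TELP procedure, depth and library cannot be told apart for this difference.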

How the data were processed

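The deposited table gives RPKM values per gene symbol, made by the authors with Bowtie2, TopHat and Cufflinks on mm9, per the submitters' processing notes. Neither versions nor settings are stated: not given in the sources used here. RPKM of a short model depends on the length correction, so reads were recovered. RPKM times the mean effective length, for fragments with a normal length distribution of mean 200 nt and SD 80 nt cut below a fitted bound, was searched for the constant that makes models under 600 nt whole within 0.02 reads. snoRNAs were left out of that search. The procedure was tested on simulated data. The values 200 and 80 are assumptions that the whole numbers were read against, and lengths come from RefSeq GRCm38.p6.

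Sums of reads carry exact 95% Poisson intervals, and ratios an exact conditional binomial interval on reads rounded to whole numbers, in scipy 1.17.1. RPKM differences are on the log2(RPKM + 1) scale, which understates low genes, where the mean of both libraries reached 1 RPKM, and a size of 1 makes the call. With 1 library per group no test was made except limma 3.58.1 (R 4.3.3) over 4 libraries, tested on simulated data, whose p-values take library types or days as the only replication.

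The 74 members, the pathway lists and the alternatives were chosen with earlier results of these data known. Named members were all Scarna models, the 5 highest means and up to 3 steadiest of each class (2 in each met the minimum), the 5 highest and 5 lowest calls per comparison among members listed in both libraries, the 3 highest among those listed at 0 in one, and up to 6 called in both library types or at both days. Members printed beyond that rule (Snord15a, Snord32a, Snord33, Snord35a, Snora16a and other members of the same hosts or read counts, and the overlaps with hairpins) were chosen after their values were seen. N9_ss was left out of sums because it holds the reads of N9.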

Additional observations from a re-analysis of the deposited data

Results flagged for a closer look

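Several members moved in opposite directions between the library types or between the days, on the log2(RPKM + 1) scale. Counted here are only differences of at least 1 in size both times, so members with smaller opposite differences are left out. The differences were not tested, and each rests on few reads. Day 7 minus day 0 was positive in the standard libraries and negative in TELP N9, by at least 1 in each, for 5 members. Scarna3a differed by 4.30 in the standard libraries and -4.38 in TELP N9, Snora2b by 4.59 and -3.71, and Snora36b by 4.54 and -3.66. Snora64 differed by 5.88 and -5.39, and Snora70 by 1.57 and -3.03. Day 7 minus day 0 was negative in the standard libraries and positive in TELP N9, by at least 1 in each, for 4 members. Snord100 differed by -8.14 in the standard libraries and 4.60 in TELP N9, Snord35a by -6.01 and 9.06, Snord47 by -8.59 and 2.90, and Snord55 by -6.97 and 12.88.

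TELP N9 minus standard was at least 1 in size on both days, with opposite signs, for 8 members. It was negative at day 7 and positive at day 0 for Scarna3a (-4.30 at day 7 and 4.38 at day 0), Snora2b (-4.59 and 3.71), Snora36b (-4.54 and 3.66) and Snora64 (-5.88 and 5.39). It was positive at day 7 and negative at day 0 for Snora17 (1.36 at day 7 and -2.25 at day 0), Snord34 (4.20 and -8.43), Snord35a (9.06 and -6.01) and Snord55 (12.88 and -6.97). Of all 10501 genes kept at both days, 23 were lower by at least 1 log2 unit at day 7 and higher by at least 1 at day 0. The reverse held for 8 genes. The members counted in both sets are the same values seen from the other side. Of all 10988 genes kept in both library types, 17 and 8 genes had opposite differences of at least 1 log2 unit, in the 2 directions, between library types. Snord55 is the only one of these members with 10 or more reads in any library of the comparison.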

How the results depend on the processing

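Of 162 alternatives to the counts and sums, 126 stayed within 1.5 times or within the error of the value reported, under other pseudocounts, filters, scalings and TELP columns, and 36 moved. Counting only members listed in both libraries left 4 higher and 1 lower at day 7 in the standard libraries, 11 and 3 in TELP N9, 3 and 6 for TELP N9 against standard at day 0, 11 and 1 at day 7, and 4 and 7 for T18 against TELP N9. Requiring RPM intervals that do not overlap, an alternative chosen after seeing the data, left 0 and 0, 8 and 0, 0 and 0, 7 and 0, and 1 and 2 in the same order. A mean of at least 10 RPKM left 12 lower at day 7 in TELP N9. The limma fit gave 2 higher at day 7 in both library types (16 members had an unadjusted p under 0.05), and 0 higher and 0 lower for library type (12 members).

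Without microRNA models and small noncoding RNAs outside the class in the total, C/D members held 28.34% of the RPKM of T18. On the same basis H/ACA members held 3.61% in T18, 0.263% in N9_ss and 0.282% in N9 at day 7. The H/ACA totals thus also leave out the C/D members, which held 30.02% of all RPKM in TELP N9 at day 7. Sums without single members were chosen after seeing the data. The C/D RPM without Snord49a, Snord83b and Snord55 was 10.1 in T18 and 9.79 in N9 at day 7. The H/ACA RPM was 7.17 in T18 without Snora16a. Without Snora81 and Snora65 it was 2.22 in TELP N9 at day 0, 2.38 in the standard library at day 7 and 1.74 at day 0. With whole-read members only it was 2.69 in TELP N9 and 2.08 in the standard library, both at day 0. The share of higher genes among all called moved, under scaling by the median of ratios, to 68.71% from 55.72% as deposited in the standard libraries, to 51.61% from 31.77% in TELP N9, to 47.24% from 30.69% for TELP N9 against standard at day 7, and to 45.87% from 0.999% for T18 against TELP N9. The cause of these shifts was not tested.

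No paired analysis was possible because the RNA libraries share no replicate numbers, and the samples whose titles do are chromatin samples not analysed here. The block of the limma fit above is the library type or the day, not a replicate. Depth limits the single members most, since 74.57% of listed values stand for 3 reads or fewer.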
